A study of Mus musculus with 3 samples.

Results

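The secreted modulators of Wnt and insulin-like growth factor (IGF) signaling were examined in the suprarenal aorta of mice infused with angiotensin II (AngII). The genes were selected on their names and on earlier results of these same data: *Sost*, *Sfrp4* and *Igfbp2* were chosen for their FPKM differences between cohorts, and every gene whose symbol is Sfrp, Igfbp or Dkk followed only by digits was added. RefSeq holds 16 such mouse genes, and 6 of them (*Sost*, *Sfrp4*, *Sfrp2*, *Dkk2*, *Igfbp2* and *Igfbp3*) were among the 1238 different entries that the authors listed in at least 1 comparison. The other 10 genes (*Sfrp1*, *Sfrp5*, *Dkk1*, *Dkk3*, *Dkk4*, *Igfbp1*, *Igfbp4*, *Igfbp5*, *Igfbp6* and *Igfbp7*) were not listed in any comparison, and their levels are therefore not analysed here.

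The data consisted of 3 RNA-seq libraries, 1 for each cohort of male *apoE* null mice on the C57BL/6 strain that received a pump at 12 weeks of age. All 3 cohorts lack apolipoprotein E, which makes mice prone to hyperlipidemia. The AngII AAA cohort received angiotensin II and developed a dissecting abdominal aortic aneurysm (AAA), which was collected within 24 hours of its diagnosis. The AngII No AAA cohort received the same peptide, had no aneurysm, and was collected on day 10. The Saline cohort received saline and was also collected on day 10. Each library pooled equal amounts of RNA from the animals of its cohort, so that there was no replicate, no spread between animals, and no test for any difference below. The presence of an aneurysm and the day of collection cannot be told apart.

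Wnt proteins are secreted ligands that bind Frizzled receptors together with the coreceptors LRP5 and LRP6 and, in one branch of the pathway, stabilize beta-catenin. Sclerostin, the product of *Sost*, and the Dickkopf proteins bind the coreceptors, whereas the secreted frizzled-related proteins bind Wnt ligands directly. Sclerostin is best known from osteocytes, where it restrains bone formation. IGF-binding proteins carry IGF1 and IGF2 outside the cell and set how much of the ligand can reach its receptor.

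Values are FPKM, counts of fragments divided by transcript length in kilobases and by the number of fragments in the library, so that levels of different genes are compared per length. The authors listed a gene for a comparison of 2 libraries only when its unadjusted p-value was under 0.05. A gene that is not listed either missed this limit or was not tested. The list of AngII AAA vs. AngII No AAA held 600 entries, that of AngII AAA vs. Saline 715, and that of AngII No AAA vs. Saline 564. Above 0 FPKM in both libraries were 584, 677 and 546 of these. The 3 comparisons share libraries and are not independent of each other. The FPKM of a library differed between comparisons by a constant that was the same for every shared entry (0.968 for AngII AAA over 385 entries, 0.914 for AngII No AAA over 102 and 0.915 for Saline over 227). The constants of AngII AAA and Saline were divided out so that all 3 libraries shared the scale used in AngII AAA vs. Saline, called the common scale. The constant of AngII No AAA was not used. Differences between AngII No AAA and Saline on the common scale can thus depart slightly from those within their own comparison (log2 3.58 and 3.53 for *Sfrp4*).

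*Sost* was high in the Saline and AngII No AAA libraries and low in the AngII AAA library. On the common scale, its level was 143 FPKM in Saline, 102 FPKM in AngII No AAA and 6.48 FPKM in AngII AAA. The aneurysm library thus held 4.53% of the Saline level and 6.34% of the AngII No AAA level, whereas the AngII No AAA library held 71.5% of the Saline level. *Sost* lies on chromosome 11 at chr11:101823771-101828329 in the coordinates of the authors' files (mouse build mm9).

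The level of *Sfrp4*, a secreted frizzled-related protein, peaked in the AngII No AAA library. On the common scale it reached 25.1 FPKM in Saline, 299 FPKM in AngII No AAA and 90.8 FPKM in AngII AAA. The aneurysm library lay between the other two, at 362% of the Saline level and 30.3% of the AngII No AAA level. The gene lies at chr13:19715043-19724692 (mm9).

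*Sfrp2*, of the same family, and *Dkk2*, a Dickkopf protein, were listed only for AngII No AAA vs. Saline. *Sfrp2* was at 88.8 FPKM in AngII No AAA and 39.6 FPKM in Saline on the scale of that comparison. *Dkk2* was at 7.58 FPKM in AngII No AAA and 3.35 FPKM in Saline. Both were therefore higher in the AngII No AAA library, by 2.24-fold and 2.26-fold, and neither has a value for the AngII AAA library here. Their loci are chr3:83570242-83578236 for *Sfrp2* and chr3:131748255-131843268 for *Dkk2* (mm9).

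*Igfbp2* showed the same order of libraries as *Sfrp4*. On the common scale it was at 6.58 FPKM in Saline, 92.9 FPKM in AngII No AAA and 14.9 FPKM in AngII AAA, with 16.1% of the AngII No AAA level left in the aneurysm library. *Igfbp3*, which encodes the main IGF carrier of plasma, had another order. It was at 3.22 FPKM in Saline, 7.89 FPKM in AngII No AAA and 32.0 FPKM in AngII AAA, so that the aneurysm library was the highest. The genes lie at chr1:72871053-72899045 (*Igfbp2*) and chr11:7106095-7113926 (*Igfbp3*) in mm9.

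**Figure D1:**
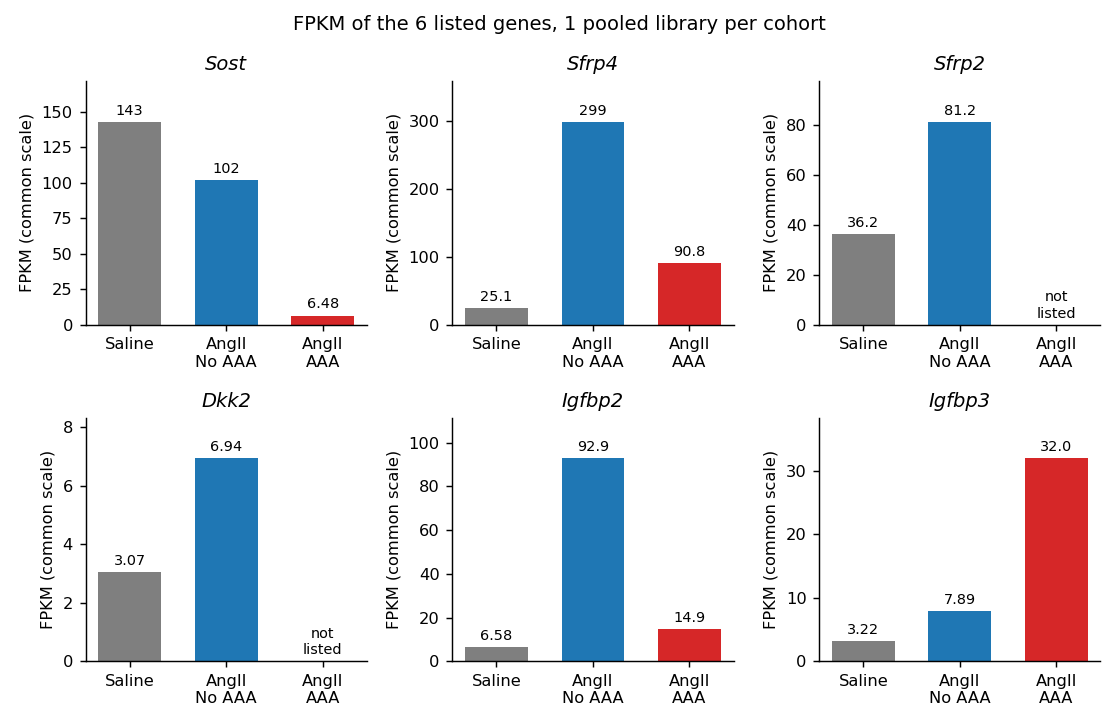
FPKM on the common scale (vertical axis, from 0) of the 6 listed genes in the Saline (grey), AngII No AAA (blue) and AngII AAA (red) libraries; each bar is 1 pooled library and has no error. *Sost* fell to 6.48 FPKM in AngII AAA, *Sfrp4* and *Igfbp2* peaked in AngII No AAA at 299 and 92.9 FPKM, and *Igfbp3* peaked in AngII AAA at 32.0 FPKM, while *Sfrp2* and *Dkk2* have no value for AngII AAA.

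The gene with the highest level differed between the Saline library and the AngII libraries. In Saline, *Sost* had the highest level of the 6 genes, in AngII No AAA *Sfrp4* did, and in AngII AAA *Sfrp4* was the highest of the 4 genes with a value there. The ratio of *Sost* to *Sfrp4* within a library, which does not depend on how libraries were scaled against each other, was 5.70 in Saline, 0.342 in AngII No AAA and 0.0714 in AngII AAA. *Sost* was thus above *Sfrp4* in the Saline library, and *Sfrp4* was 2.92 and 14.0 times *Sost* in AngII No AAA and AngII AAA. Of the IGF carriers, *Igfbp2* was 2.04 times *Igfbp3* in Saline and 11.8 times in AngII No AAA, but 0.467 times in AngII AAA. The ratio of *Sfrp4* to *Igfbp2* varied less, from 3.22 in AngII No AAA to 3.81 in Saline and 6.08 in AngII AAA.

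The start regions of *Sost*, *Igfbp2* and *Igfbp3* are shown because these genes stand for the 3 orders of libraries seen among the members. The windows are RefSeq sequences of build GRCm38.p6, from 250 bases before to 50 bases after the gene's start, and were not placed on the mm9 loci above. They cover chr11:101966966-101967265 on the minus strand for *Sost*, chr1:72824230-72824529 on the plus strand for *Igfbp2* (the more upstream of its 2 starts in RefSeq), and chr11:7213874-7214173 on the minus strand for *Igfbp3*. Each is written 5′ to 3′ along the gene, with GC boxes in capitals.
Sost: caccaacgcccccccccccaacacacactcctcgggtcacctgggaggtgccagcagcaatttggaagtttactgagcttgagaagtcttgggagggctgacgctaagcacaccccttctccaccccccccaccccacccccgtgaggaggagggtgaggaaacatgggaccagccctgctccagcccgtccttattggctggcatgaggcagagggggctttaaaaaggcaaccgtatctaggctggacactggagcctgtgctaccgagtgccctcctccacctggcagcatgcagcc
Igfbp2: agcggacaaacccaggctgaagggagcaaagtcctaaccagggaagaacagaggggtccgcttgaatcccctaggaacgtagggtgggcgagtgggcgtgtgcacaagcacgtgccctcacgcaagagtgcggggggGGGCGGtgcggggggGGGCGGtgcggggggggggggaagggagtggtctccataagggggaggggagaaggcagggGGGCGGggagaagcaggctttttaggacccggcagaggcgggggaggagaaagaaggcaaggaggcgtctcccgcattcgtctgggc
Igfbp3: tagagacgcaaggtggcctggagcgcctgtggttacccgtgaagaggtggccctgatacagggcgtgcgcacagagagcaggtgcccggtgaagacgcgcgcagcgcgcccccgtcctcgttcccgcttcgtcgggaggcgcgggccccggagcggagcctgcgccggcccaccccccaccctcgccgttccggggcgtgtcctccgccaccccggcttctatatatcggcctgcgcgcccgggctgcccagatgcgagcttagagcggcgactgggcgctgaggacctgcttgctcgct

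Of the 6 genes, 5 were found in the RefSeq table of start regions, and *Sfrp4* was not. Both strands of each window were searched for a TATA box (TATAAA), a GC box (GGGCGG), a TCF/LEF core (CTTTGA) and an AP-1 site (TGANTCA), which 13.6%, 35.7%, 16.0% and 7.81% of all 32851 windows hold. The *Igfbp2* window printed holds 3 GC boxes, which begin 113, 98 and 37 bases before the start and do not overlap each other. The window at the other *Igfbp2* start holds an AP-1 site 39 bases before that start, and the *Dkk2* window holds a TATA box and 2 GC boxes, 32, 60 and 17 bases before the start. None of the 4 motifs was found in the windows of *Sost*, *Igfbp3* or *Sfrp2*. The windows of *Sost*, *Igfbp2* and *Igfbp3* are 62.0%, 67.0% and 71.7% G and C, against a median of 52.7% over all windows. These matches describe letters only and are not evidence of binding.

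For AngII AAA vs. AngII No AAA, the comparison of aneurysmal with non-aneurysmal aorta under the same peptide, 4 of the 6 genes were listed. *Sost* was 6.27 FPKM in AngII AAA and 99.0 FPKM in AngII No AAA, a log2 difference of -3.98, or 15.8-fold lower, and it ranked lowest of the 584 entries. *Igfbp2* was 6.22-fold lower (14.4 and 89.9 FPKM, log2 difference -2.64) and ranked 7 from the bottom. *Sfrp4* was 3.30-fold lower (87.8 and 289 FPKM, log2 difference -1.72). *Igfbp3* stood on the other side, 4.05-fold higher in AngII AAA (31.0 and 7.64 FPKM, log2 difference 2.02). At least 4-fold lower were 2 of the 4 genes, where 4.62% of all entries were, and 1 was at least 4-fold higher, where 31.5% were. The genes were chosen on these contrasts, so the shares are a description and nothing is read from them.

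For AngII AAA vs. Saline, 3 of the genes were listed. *Sost*, at 6.48 and 143 FPKM, was 22.1-fold lower in AngII AAA (log2 difference -4.46), which was again the lowest of all 677 entries. *Igfbp3* was 9.93-fold higher (32.0 and 3.22 FPKM, log2 difference 3.31), and *Sfrp4* was 3.62-fold higher (90.8 and 25.1 FPKM, log2 difference 1.85). The median log2 difference over all entries was 2.26, so that *Igfbp3* lay above and *Sfrp4* below the middle of this list. Of the 3 genes, 1 was at least 4-fold higher against 63.7% of entries, and 1 was at least 4-fold lower against 7.09%. *Igfbp2* was not listed here. Its values from the other comparisons, on the common scale, were 2.27-fold higher in AngII AAA, which is under the smallest fold difference of any listed entry above 0 (2.93).

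For AngII No AAA vs. Saline, the comparison of peptide with vehicle in the absence of an aneurysm, 5 of the genes were listed and all were higher in AngII No AAA. *Igfbp2* was 13.7-fold higher (98.3 and 7.20 FPKM, log2 difference 3.77) and *Sfrp4* 11.5-fold higher (317 and 27.4 FPKM, log2 difference 3.53), which placed them 2 and 3 from the top of 546 entries. *Igfbp3* was 2.37-fold higher (8.36 and 3.52 FPKM, log2 difference 1.25), close to *Sfrp2* and *Dkk2* with log2 differences of 1.16 and 1.18. These last 3 differences were near the median log2 difference of 1.16 over all entries, of which 345 were higher and 201 lower. All 3 were below the median of 1.44 over the 345 higher entries alone. At least 4-fold higher were 2 of 5 genes against 9.89% of entries, and 0 of 5 were at least 4-fold lower against 3.48%. *Sost* was not listed. On the common scale it was 1.40-fold lower in AngII No AAA (log2 difference -0.48), under the smallest listed fold difference of 1.91.

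**Figure D2:**
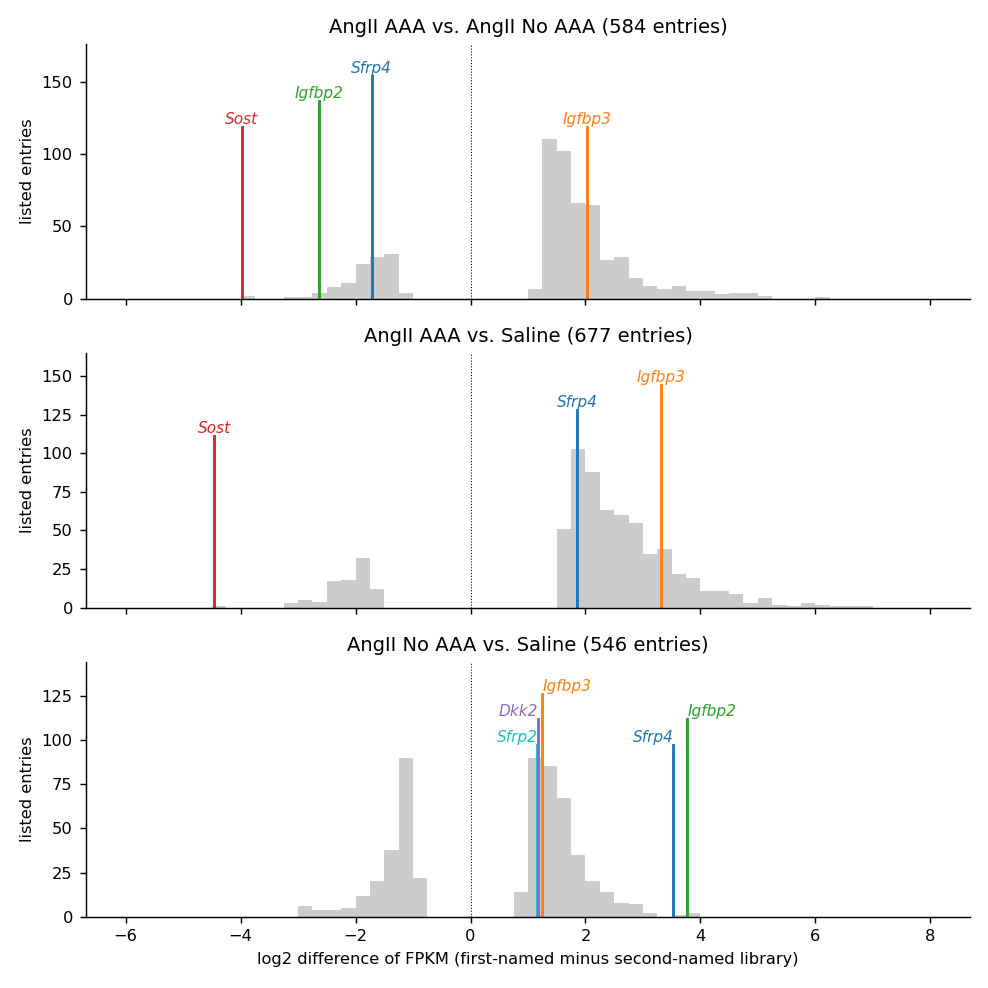
Histograms of the log2 difference of FPKM (horizontal axis, first-named minus second-named library) over the listed entries above 0 in both libraries (vertical axis, number of entries per bin), with colored lines at the listed genes. *Sost* lies at the far left at -3.98 and -4.46, and *Igfbp2* and *Sfrp4* lie at the far right for AngII No AAA vs. Saline at 3.77 and 3.53; the empty middle holds genes that were not listed.

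The order of the 3 libraries could be read for 544 entries above 0 FPKM in all of them. *Igfbp3* followed the most common order, with AngII AAA highest, AngII No AAA next and Saline lowest, as did 420 of the entries (77.2%). *Sost* had the opposite order, which 57 entries (10.5%) showed. *Igfbp2* and *Sfrp4* were 2 of 11 entries (2.02%) with AngII No AAA highest and AngII AAA above Saline. Among the rest, named after their values were seen, were *Esm1*, *Snora81*, *Cpxm1*, *Mfap5*, *Cyp2f2*, *Hbb-b2*, *Cpxm2* and the BMP antagonist *Chrdl1*. *Chrdl1* was nearly level in AngII AAA and Saline (11.2 and 11.1 FPKM on the common scale), so its place among the 11 is not firm. The same holds for *Hbb-b2*, nearly level in AngII AAA and AngII No AAA (754 and 778 FPKM). The orders of *Sost* and *Igfbp2* each rest in part on a difference that was not listed. These are 1.40-fold between Saline and AngII No AAA for *Sost*, and 2.27-fold between AngII AAA and Saline for *Igfbp2*. The values that give these orders are the ones that chose the genes, and only entries listed in at least 2 comparisons have a value in all 3 libraries.

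**Figure D3:**
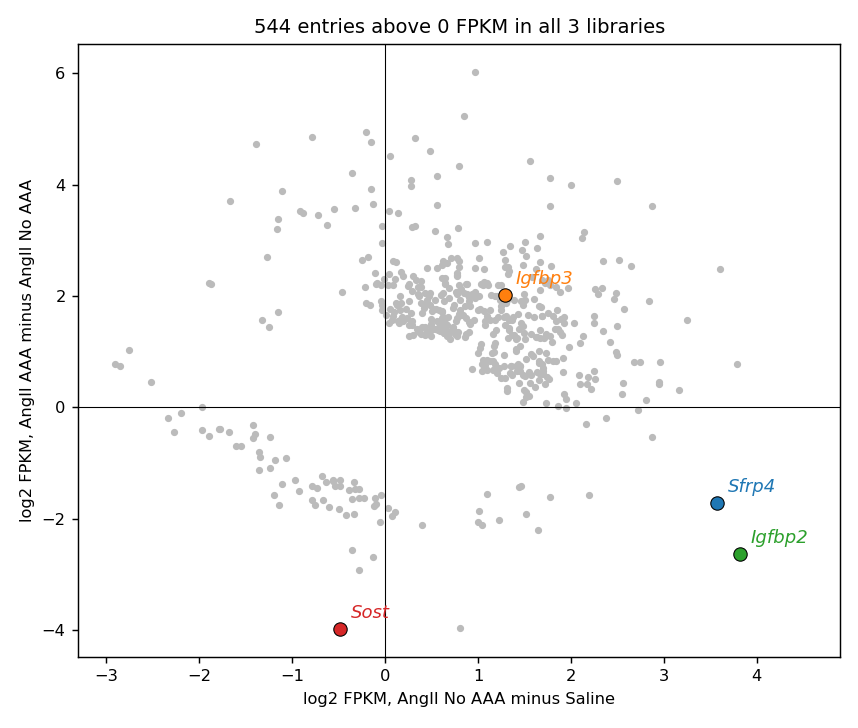
Each point is 1 of 544 entries with its log2 difference of FPKM between AngII No AAA and Saline (horizontal axis) and between AngII AAA and AngII No AAA (vertical axis), on the common scale; 4 members are colored. *Sost* lies at the bottom near 0 on the horizontal axis (-0.48), *Sfrp4* and *Igfbp2* lie together at the lower right (3.58 and 3.82), and *Igfbp3* lies within the main cloud at the upper right.

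The pattern nearest to that of *Sfrp4* was that of *Igfbp2*, and the reverse also held. Nearness was measured as the Euclidean distance between the pairs of log2 differences (AngII AAA against AngII No AAA, and AngII No AAA against Saline) over 539 entries that name a single gene, from 3 libraries. The distance between *Sfrp4* and *Igfbp2* was 0.949. Both genes were chosen on these same differences, so their nearness is a description and nothing is read from it. The next entries for *Sfrp4* were *Esm1*, a proteoglycan secreted by endothelium (1.38), *Cyp2f2*, a cytochrome P450 (1.39), the small nucleolar RNA *Snora81* (1.80) and the beta globin *Hbb-b2* (1.88). For *Igfbp2* they were *Cyp2f2* (1.94), *Mfap4*, an elastic fiber protein (2.22), *Snora81* (2.29) and *Esm1* (2.30).

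*Cyp2f2* was at 10.1 FPKM in Saline, 46.1 FPKM in AngII No AAA and 15.5 FPKM in AngII AAA, and *Mfap4* at 158, 492 and 107 FPKM. For *Sost*, the nearest entries were *Optc*, an extracellular matrix proteoglycan (distance 1.07), the cardiac troponin *Tnnt2* (1.29), the serine protease inhibitor *Serpina1d* (1.34), *Casq1*, a calcium store protein of skeletal muscle (1.43), and *Ccdc141* (1.97). *Optc* was at 18.6 FPKM in Saline, 15.4 FPKM in AngII No AAA and 2.02 FPKM in AngII AAA. All 5 were low in AngII AAA, from 0.525 FPKM (*Tnnt2*) to 2.02 FPKM, and each was at a lower level than *Sost* in all 3 libraries. No counting error was computed for such low values. *Serpina1d* is also among the hepatocyte markers used below.

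The other genes of the Wnt pathway are given by how many of each list were listed, and since only listed entries were at hand, the share listed over all genes tested is not analysed here. Of 16 secreted Wnt antagonists, the 4 listed were *Sost*, *Sfrp4*, *Sfrp2* and *Dkk2*. Of 19 Wnt ligands, 1 was listed: *Wnt2b*, at 12.6 FPKM in AngII No AAA and 26.5 FPKM in Saline. Of 27 receptors and R-spondins, 1 was listed: the R-spondin receptor *Lgr6*, which was lower than in Saline (19.8 FPKM) in AngII AAA (4.50 FPKM) and also lower in AngII No AAA (9.51 against 21.6 FPKM). Neither *Lrp5* nor *Lrp6* was listed.

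Of 23 beta-catenin pathway and target genes, 3 were listed, and all were higher in AngII AAA, the direction of 80.3% of entries above 0 in AngII AAA vs. AngII No AAA and of 86.4% in AngII AAA vs. Saline. The transcription factor *Myc* was at 46.4 FPKM in AngII AAA and 8.57 FPKM in Saline, and at 44.9 against 15.5 FPKM in AngII No AAA. *Cd44*, a hyaluronan receptor that leukocytes also carry, was at 91.3 FPKM in AngII AAA and 18.4 FPKM in Saline, and at 88.4 against 24.8 FPKM in AngII No AAA. *Tcf7*, a TCF factor that T cells also express, was at 7.99 FPKM in AngII AAA and 1.77 FPKM in Saline. The widely used target genes *Axin2*, *Lef1* and *Nkd1* were not listed.

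Among 14 IGF ligands, receptors and proteases of the IGF carriers, 2 were listed. *Igf1*, the ligand itself, was 2.70-fold higher in AngII No AAA than in Saline (109 and 40.3 FPKM). *Htra1*, a secreted protease, was 2.67-fold lower in AngII AAA than in AngII No AAA (39.7 and 106 FPKM). The IGF receptor gene *Igf1r* was not listed, and of the 7 IGF-binding proteins only *Igfbp2* and *Igfbp3* were.

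Of the 6 genes of the CCN family, secreted proteins with an IGF-binding protein domain, 4 were listed. *Ctgf* (417 and 109 FPKM), *Wisp2* (40.1 and 11.6 FPKM) and *Wisp1* (10.5 and 3.52 FPKM) were higher in AngII No AAA than in Saline, as were 63.2% of all entries above 0. *Nov* was lower in AngII AAA than in AngII No AAA (30.6 and 121 FPKM), and *Wisp1* was higher in AngII AAA than in Saline (18.7 and 3.22 FPKM). *Nov* and *Wisp1* were not listed in the same comparison, so their directions in the aneurysm library are not set against each other.

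Sclerostin belongs by structure to a family of antagonists of bone morphogenetic proteins (BMP). Genes from a wider list of BMP antagonists, which was not limited to that structural family, were listed as well. For AngII No AAA vs. Saline they included *Chrdl1* (31.9 and 12.1 FPKM), *Bmper* (7.98 and 2.38 FPKM) and *Htra3* (108 and 47.4 FPKM), each higher in AngII No AAA. *Chrdl1* was lower in AngII AAA than in AngII No AAA (10.8 and 29.1 FPKM), and *Bmper* was higher in AngII AAA than in Saline (10.7 and 2.18 FPKM). None of these 3 was lower in AngII No AAA than in Saline. Of all entries above 0 in that comparison, 63.2% were higher and 36.8% lower, so nothing is read from this direction.

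*Spp1*, *Mmp9* and *Mmp2*, matrix-related genes that the study's text discusses beside sclerostin and that were therefore chosen on these samples, were higher in the first-named library wherever they were listed. *Spp1* (osteopontin) was at 548 FPKM in AngII AAA and 8.57 FPKM in Saline, and at 530 against 33.3 FPKM in AngII No AAA, and it was at 36.4 FPKM in AngII No AAA against 9.37 FPKM in Saline. *Mmp9*, a gelatinase of which neutrophils are a known source, was at 76.1 FPKM in AngII AAA and 3.99 FPKM in Saline, and at 73.6 against 4.70 FPKM in AngII No AAA. *Mmp2* was listed only for AngII No AAA vs. Saline, at 62.1 and 23.7 FPKM, a comparison in which *Sost* was not listed. Over all pathway lists without the 6 members, AngII AAA vs. AngII No AAA held 7 genes (3 of them lower in AngII AAA), AngII AAA vs. Saline held 8 (1 lower in AngII AAA), and AngII No AAA vs. Saline held 12 (2 lower in AngII No AAA). Of all entries above 0, 19.7%, 13.6% and 36.8% were lower in the same 3 comparisons.

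**Figure D4:**
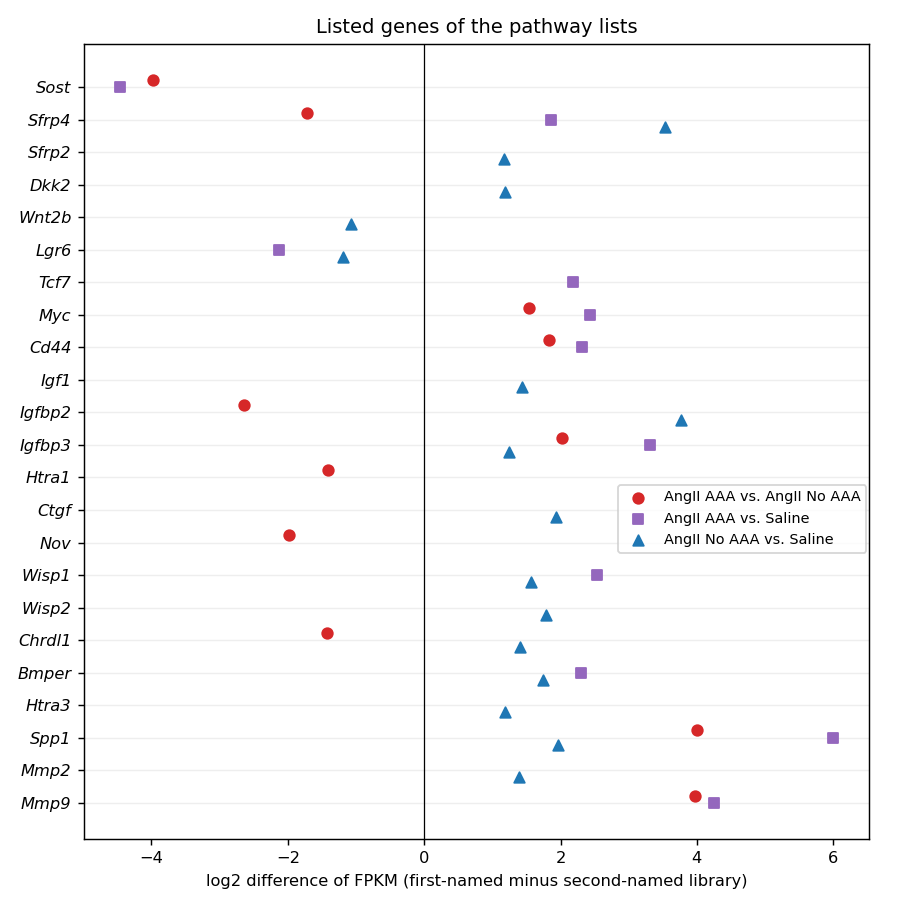
Log2 difference of FPKM (horizontal axis, first-named minus second-named library) for the listed genes of the pathway lists that are reported here (rows), with a red circle for AngII AAA vs. AngII No AAA, a purple square for AngII AAA vs. Saline and a blue triangle for AngII No AAA vs. Saline; a missing symbol means that the gene was not listed. *Sost* holds the lowest values of all rows (-3.98 and -4.46), and *Igfbp2* and *Sfrp4* hold the highest triangles (3.77 and 3.53).

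Markers of several cell types moved with the cohorts, and in such bulk tissue fewer cells of a type and less RNA per cell cannot be told apart. The labelled tissue was checked by 10 smooth muscle markers, of which 7 were listed. All 7 were lower in AngII AAA than in AngII No AAA (752 and 2525 FPKM when summed), as were 19.7% of all entries above 0. *Acta2* (304 and 926 FPKM) and *Myh11* (76.6 and 279 FPKM) were among these 7 markers. The markers' log2 differences ran from -2.26 to -1.47 with a median of -1.74. *Sfrp4*, at -1.72, fell within this range, *Igfbp2*, at -2.64, lay below it, and *Sost*, at -3.98, lay 4.73-fold below the markers' median. For AngII AAA vs. Saline, 2 smooth muscle markers were listed, with log2 differences of -2.45 and -2.32, above the -4.46 of *Sost*. In AngII No AAA vs. Saline, no smooth muscle marker appeared. The part of smooth muscle in the *Sost* difference was not tested.

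Of 8 fibroblast markers, 4 (*Lum*, *Col1a2*, *Dpt* and *Pi16*) were higher in AngII No AAA than in Saline, 912 and 262 FPKM when summed. That was the direction of 63.2% of all entries above 0. The log2 differences of these 4 markers ran from 1.26 to 2.32. This range lay below the 3.53 of *Sfrp4* and the 3.77 of *Igfbp2* and above the values of *Igfbp3*, *Sfrp2* and *Dkk2*. In AngII AAA vs. AngII No AAA, *Pi16* was the only one listed (46.9 and 177 FPKM, log2 difference -1.92). In AngII AAA vs. Saline, *Col3a1*, a fibrillar collagen, was the only one and was higher in AngII AAA (717 and 93.2 FPKM, log2 difference 2.94), above the 1.85 of *Sfrp4*. The part of fibroblasts in these differences was not tested.

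Of 7 macrophage marker genes, 6 were higher in AngII AAA than in AngII No AAA, and 7 were higher in AngII AAA than in Saline. For AngII No AAA vs. Saline, 6 were higher in AngII No AAA. *Igfbp3* had the same directions, as did 80.3%, 86.4% and 63.2% of all entries above 0 in the 3 comparisons in turn. Of 8 neutrophil markers, 6, 7 and 0 were listed in the same 3 comparisons, all higher in AngII AAA, and of 7 adrenal cortex markers 6, 5 and 0, also all higher in AngII AAA (462 FPKM against 15.0 FPKM in AngII No AAA when summed). Of 8 skeletal muscle markers, 0, 4 and 6 were listed, all lower than in Saline, and 3 of 6 hepatocyte markers were lower in AngII AAA than in each of the other libraries. Of 6 kidney markers, 0, 1 and 2 were listed, also all lower than in Saline. *Slc34a1* was at 1.42 FPKM in AngII AAA and 7.37 FPKM in Saline, and *Kap* at 3.73 FPKM in AngII No AAA and 27.5 FPKM in Saline. Of all entries above 0, 19.7%, 13.6% and 36.8% were lower in the first-named library of the 3 comparisons in turn. Markers of tissues other than aorta thus differed between the libraries, and their part in the values of the members was not tested. Of 10 osteocyte and osteoblast markers, *Runx2* alone was listed (10.5 FPKM in AngII AAA and 2.85 FPKM in Saline), higher in the library where *Sost* was low, and *Dmp1*, *Mepe* and the rest were not listed. No mesothelial or adipocyte marker was listed. The chondrocyte, endothelial and lymphocyte lists had 1 listed gene each, always higher in the first-named library. *Comp* was at 15.1 FPKM in AngII No AAA and 5.12 FPKM in Saline, and *Emcn* at 43.6 FPKM in AngII AAA and 14.1 FPKM in Saline. *Cd79a* was at 13.4 FPKM in AngII AAA and 2.30 FPKM in Saline, and at 13.0 against 3.12 FPKM in AngII No AAA.

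**Figure D5:**
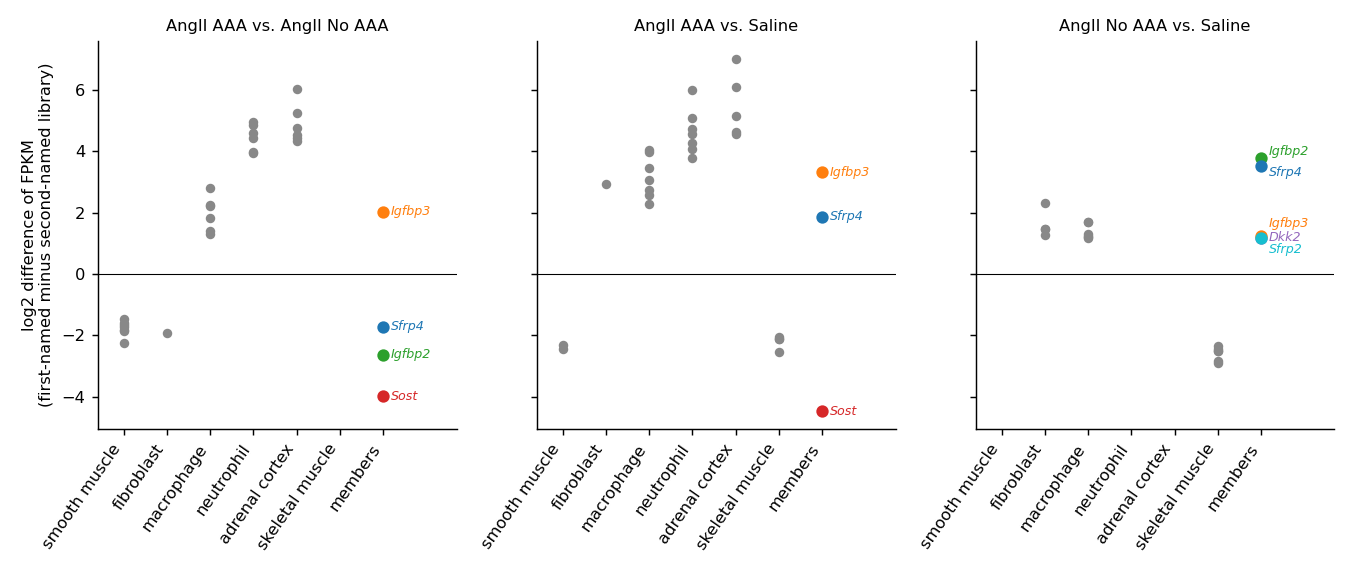
Log2 difference of FPKM (vertical axis, first-named minus second-named library) of each listed marker gene (grey points, by cell type) and of each listed member (colored points) in the 3 comparisons. *Sost* lies below all smooth muscle markers in AngII AAA vs. AngII No AAA (-3.98 against a lowest marker of -2.26), and *Igfbp2* and *Sfrp4* lie above all fibroblast markers in AngII No AAA vs. Saline (highest marker 2.32).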

How the data were processed

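RNA-seq of 3 pooled suprarenal aorta libraries, 1 per cohort, was analysed. Per the labels, libraries were made with a NuGEN Ovation kit from total RNA, and the submitters' processing notes name FastQC, HISAT2, Cufflinks, Cuffdiff and build mm9, with versions not given in the sources used here. Each deposited table holds the authors' FPKM values of 2 libraries, and keeps entries with an unadjusted p-value under 0.05 (0 exceptions were found). They also deposited their fold changes, test scores, p-values and adjusted p-values, which were not used for any value here.

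Ratios and log2 differences were recomputed from FPKM with no pseudocount, and entries at 0 FPKM in a library were left out of ranks. The constants between comparisons are median ratios over shared entries. The AngII No AAA level was taken from the comparison with AngII AAA where the gene was listed there, and otherwise from the comparison with Saline. Values at least 4-fold apart were counted as past the fold. The deposited FPKM values carry no fragment counts per gene, so no counting error was computed, and with 1 pool per cohort no test was run. Named genes are all members, the listed genes of the pathway lists (1 is not reported here), and the 5 entries nearest in pattern to *Sost*, *Sfrp4* and *Igfbp2*. Members and lists were chosen with earlier results of these data known. Motif searches used RefSeq windows of GRCm38.p6. The steps were tested on simulated data and run in Python 3.11.15 with pandas 2.3.3, numpy 2.4.6 and matplotlib 3.10.9.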

Additional observations from a re-analysis of the deposited data

How the results depend on the processing

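Of 134 values recomputed under other settings, 119 stayed within 1.5-fold of the reported value, 15 moved, and 0 changed direction. The 15 were counts past another fold limit. With at least 2-fold in place of 4-fold, the entries were 469 higher and 115 lower for AngII AAA vs. AngII No AAA, 92 lower for AngII AAA vs. Saline, 331 higher and 179 lower for AngII No AAA vs. Saline, and the members higher were 2 in AngII AAA vs. Saline and 5 in AngII No AAA vs. Saline. With at least 8-fold, the entries were 49 higher and 3 lower, 165 higher and 4 lower, and 5 higher and 0 lower for the same comparisons in turn, and 0 members were higher and 1 (*Sost*) was lower in AngII AAA vs. AngII No AAA. These changes follow from the limit itself. A pseudocount of 1 FPKM, a minimum of 1 FPKM, single-gene entries, other constants between comparisons, ratios taken through the third library, and a city-block distance moved no other value past 1.5-fold. Constants from entries of at least 10 FPKM were the same as the main ones, so that setting could change nothing. The minimum of 1 FPKM and the single-gene setting gave 39 values each, most of them counts of listed genes that already met both conditions. Ratios taken through the third library, or with no constant divided out, could differ only by the fixed constants. Most of the 119 values could therefore hardly move, and their number is no measure of robustness. City-block distance kept 4 of the 5 nearest entries of *Sost*, *Sfrp4* and *Igfbp2* each. The pseudocount kept 4, 5 and 4 of them. No paired analysis was possible because each cohort has 1 pooled library, and no replicate could be left out. The FPKM values carry no fragment counts, and no counting error was computed for low values such as the 3.22 FPKM of *Igfbp3* in Saline.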
